A study of Vitis vinifera with 74 samples.

Results

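Control buds of the grapevine (Vitis vinifera) cultivar Cabernet Franc sampled 48 h after a water spray were set against buds taken before the spray. The comparison used the 4 count columns of the 48 h control and the 3 count columns of the pre-treatment buds, 7 of the 74 samples of the series, assigned to the groups by their labels. The columns of each group were added up, so that each group was described as 1 library, and sizes of difference are given without a test.

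Overwintering grapevine buds lose their freezing tolerance when chilled canes are moved to warmth, a change called deacclimation. Water and sugars are mobilised, growth programmes restart inside the bud, and the scales open to show the brown wool of the woolly bud stage before any green tissue is seen. The controls were sprayed with water only, while parallel groups received abscisic acid (ABA), a plant hormone of dormancy and of drought and cold responses.

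Both groups came from dormant canes of field-grown vines cut in March 2017 after more than 1200 chilling hours, made into single-node cuttings and held in water at 22 °C with 16 h of light and 8 h of dark. The 48 h controls were sprayed with deionized water at the woolly stage and sampled 48 h later; the pre-treatment buds, which carry the control label, were taken before any spray. Cuttings were divided at random into 6 groups by time of sampling, so the buds of 48 h and of pre-treatment are different cuttings, and neither the number of buds in a library nor its source vine is given in the sources used here. ABA-treated buds (5 mM S-ABA) and the other control times serve below for levels and for differences that share no library with this comparison. The time of the 72 h buds is that of the sample titles, from which their description codes differ. RNA of whole buds was measured by sequencing tags near the 3′ ends of transcripts, which counts transcripts without a scaling by length.

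The identifiers in the deposited tables carry no names. None of the 42413 identifiers occurs among the 29591 genes of the RefSeq table at hand, so the identity of the genes, and with it the check of bud marker genes and of pathway lists, was not analysed here. Genes are described by level, size of difference and course, and 4 are named by identifier.

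The 4 columns of 48 h held 1992546, 2099298, 1627617 and 1978902 counts, and the 3 pre-treatment columns 2131413, 2409865 and 2167005 counts. The summed libraries held 7698363 counts at 48 h and 6708283 at pre-treatment, of which 99.6% and 99.7% fell in the 16214 genes kept by a filter on low counts. When columns were set against each other gene by gene (20 counts or more over both), chi-square divided by its degrees of freedom was 1.34 to 2.00 within the 48 h columns and 1.06 to 1.17 within the pre-treatment columns, where 1 is sampling noise. Between a 48 h and a pre-treatment column it was 17.6 to 23.3. The protocols speak of triplicate sequencing of a library, which does not account for 4 columns at 48 h, and the sources used here do not say whether columns are repeat runs or separate buds. The spread between columns may therefore be technical, and that of the 48 h columns was larger than sampling noise.

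More genes were higher than lower in control buds at 48 h than before treatment. Levels are given as CPM, a gene's share of its library put on a common scale by TMM, and differences as log2 CPM with a prior count of 2. At least 2-fold higher at 48 h were 1420 of 16214 genes (8.76%), and at least 2-fold lower 801 (4.94%), together 2221 (13.7%). Higher genes were thus 63.9% of those past 2-fold; with library totals in place of TMM the calls were 1718 higher and 583 lower (74.7% higher). The other 13993 genes (86.3%) lay within 2-fold. At least 4-fold higher were 212 genes (1.31%) and at least 4-fold lower 53 (0.327%). At least 8-fold higher were 33 genes (0.204%) and at least 8-fold lower 9 (0.0555%), and 16-fold was passed by 3 higher genes (0.0185%) and 2 lower ones (0.0123%). These counts have no replicate check. The median log2 difference was 1.37 among the higher genes, −1.24 among the lower ones and 0.022 over all genes tested. In bulk buds, fewer cells of a type and less RNA per cell cannot be told apart.

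**Figure D1:**
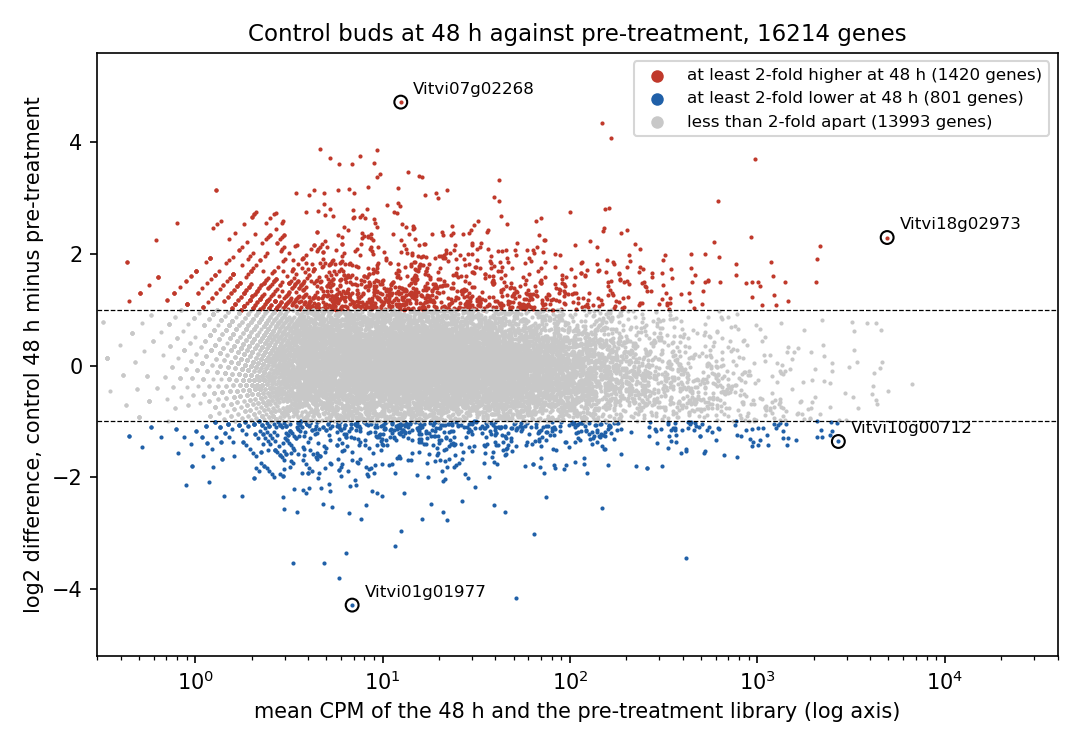
Log2 difference of control buds at 48 h minus pre-treatment (vertical axis) against the mean CPM of the 2 summed libraries (horizontal log axis), 1 point per gene. Red points are the 1420 genes at least 2-fold higher at 48 h, blue points the 801 at least 2-fold lower, dashed lines mark 2-fold, and circles mark the 4 genes named in the text.

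The single columns separated for most of these genes. In 1272 of the 1420 higher genes all 4 columns of 48 h lay above all 3 pre-treatment columns, and in 719 of the 801 lower genes all lay below. Over all genes tested, 21.9% had every 48 h column above and 21.2% every 48 h column below, so this separation alone marks many genes with small differences. All 33 and 9 genes past 8-fold had columns that did not overlap. The sums of these same columns chose the lists, so the separation follows in part from that choice and gives no separate support. Single columns of 48 h set against single columns of pre-treatment differed at least 2-fold in 1787 to 2047 of the 12546 genes with a mean of at least 5 CPM, against 192 to 407 between columns of 48 h and 202 to 239 between columns of pre-treatment (log2 of CPM + 0.5). The exact 95% interval of the ratio, which covers counting error only, lay wholly beyond 2-fold in 580 of the higher genes (40.8%) and 302 of the lower genes (37.7%).

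The share of genes lower at 48 h was larger at high than at middle levels, a description with no test. Of the 133 genes with a mean of at least 1000 CPM, 25 were at least 2-fold lower at 48 h (18.8%) and 13 at least 2-fold higher (9.77%), with a median log2 difference of −0.56 over the band. Of the 1626 genes from 100 to 1000 CPM, 123 were lower (7.56%) and 127 higher (7.81%). In the 6448 genes from 10 to 50 CPM the shares were 3.69% lower and 6.78% higher. Below 2 CPM, where 1 count weighs most, they were 6.97% lower and 15.0% higher of 933 genes.

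**Figure D2:**
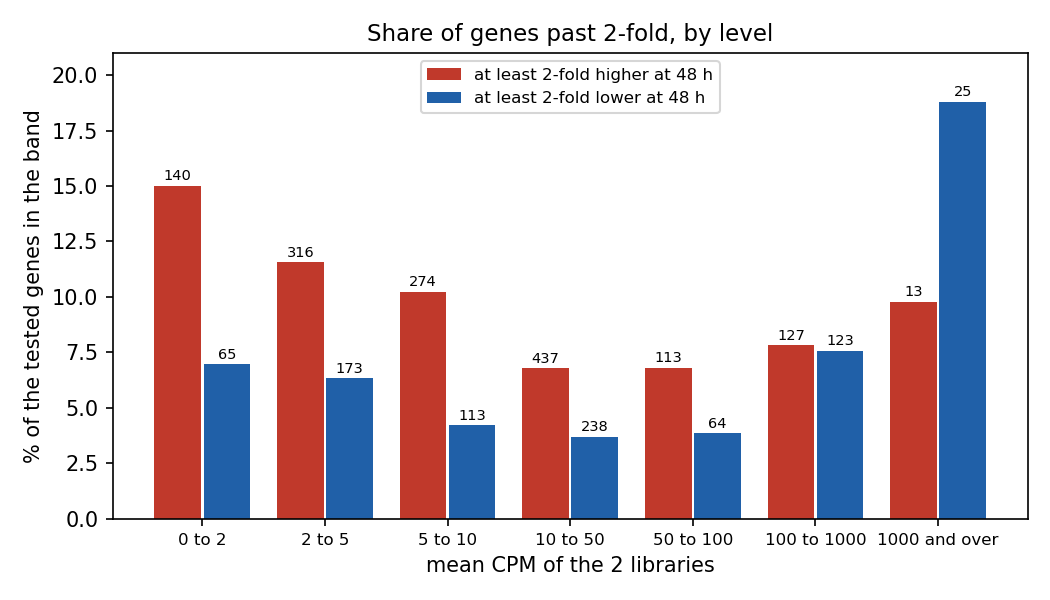
Percentage of tested genes at least 2-fold higher (red) or lower (blue) in control buds at 48 h than at pre-treatment, in 7 bands of the mean CPM of the 2 libraries, with the number of genes past 2-fold over each bar. Lower genes reach their largest share, 18.8%, in the band of 1000 CPM and over, where higher genes make up 9.77%.

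The lists were chosen on this difference, so their shares of the counts describe its size. The 1420 higher genes held 12.1% to 12.5% of the counts in each 48 h column and 3.69% to 3.95% in each pre-treatment column. The 801 lower genes held 5.50% to 5.83% in the 48 h columns and 12.3% to 12.6% in the pre-treatment columns. The 10 most abundant genes took 5.42% of the counts at 48 h and 5.00% at pre-treatment, and the 100 most abundant 22.8% and 24.4%. At an equal depth of 6708283 counts, 21737 genes are expected to have a count at 48 h, against 21535 at pre-treatment, a gap small beside either number.

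Among genes with a mean of at least 5 CPM and columns that do not overlap, Vitvi07g02268 had the largest positive difference. It had 24.8, 27.6, 21.0 and 23.5 CPM in the 48 h columns, against 0.479, 1.27 and 0 CPM in the pre-treatment columns. All 48 h columns were far above all pre-treatment columns, where the gene had 4 counts in all. The ratio of the summed libraries was 40.1, with a 95% counting interval of 15.4 to 149, and the log2 difference was 4.72, which the prior count draws towards 0 where counts are this low. Pre-treatment column 2 held 3 of the 4 counts, and without it the log2 difference was 5.42. In control buds Vitvi07g02268 had 1.38, 0.391, 7.99, 24.4 and 11.9 CPM in the order 6, 12, 24, 48 and 72 h. The level was highest at 48 h, but the gene was chosen on that value. In ABA buds it had 0.821, 5.00, 3.19, 2.18 and 4.86 CPM in the same order, above the control at 12 h and below it at the other times. No count of it occurred in the 8 pre-treatment and 4 control 48 h leaf libraries of the series.

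Of the genes at least 2-fold higher, Vitvi18g02973 had the highest level at 48 h. It had 8153, 8426, 8160 and 8012 CPM in the 48 h columns, against 1625, 1552 and 1848 CPM in the pre-treatment columns. It ranked first of all tested genes at 48 h, with 0.866% of the counts, and at rank 71 at pre-treatment, with 0.164%. The ratio was 4.90 (95% counting interval 4.81 to 5.00) and the log2 difference 2.29. With 1 column left out the log2 difference ran from 2.24 to 2.37. Its control level was not a steady climb: in the order 6, 12, 24, 48 and 72 h, Vitvi18g02973 had 5541, 3057, 4875, 8193 and 11018 CPM. In ABA buds it had 3131, 5262, 5985, 5836 and 4619 CPM in the same order. These values were above the control at 12 and 24 h and below it at 6, 48 and 72 h. The gene was chosen on its 48 h control level, so the comparison at 48 h is not free of that choice. In leaves Vitvi18g02973 was abundant as well, at 16065 ± 4089 CPM in control leaves of 48 h (SD, n = 4) and 17235 ± 4351 CPM in pre-treatment leaves (SD, n = 8), in a table scaled separately.

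The largest difference downward by the same rule was that of Vitvi01g01977. It had 0, 0.904, 0.583 and 0 CPM in the 48 h columns, against 12.9, 16.1 and 10.8 CPM in the pre-treatment columns, from 3 and 88 counts. The ratio of 48 h to pre-treatment was 0.0276, with a 95% counting interval of 0.00559 to 0.0834, and the log2 difference −4.29. Column 2 held 2 of the 3 counts at 48 h. Without it the log2 difference was −4.75, and with a prior count of 5 it was −3.57. Most of the difference was in place early: Vitvi01g01977 had 1.94, 2.54 and 0.307 CPM in control buds of 6, 12 and 24 h. In ABA buds of those times it had 12.3, 5.91 and 12.6 CPM, all above the control, and in ABA buds of 48 and 72 h 0.624 and 0 CPM. At 48 h the ABA and the control library were thus both under 1 CPM.

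Vitvi10g00712 had the highest pre-treatment level among the genes at least 2-fold lower. It stood at 1490, 1422, 1667 and 1519 CPM in the 48 h columns, against 3867, 3926 and 3898 CPM in the pre-treatment columns. The columns within each group were close. That the groups did not overlap was a condition of the rule for named genes. The ratio of 48 h to pre-treatment was 0.389 (95% counting interval 0.381 to 0.398) and the log2 difference −1.36. The control level of Vitvi10g00712 was 2480, 2579, 2288, 1517 and 872 CPM in the order 6, 12, 24, 48 and 72 h. The ABA library was lower than the control at 6, 12, 24 and 48 h, with 1742, 1192, 1179 and 836 CPM, and higher at 72 h, with 1167 CPM. In leaves Vitvi10g00712 had 299.6 ± 24.7 CPM in controls of 48 h (SD, n = 4) and 308 ± 28.1 CPM before treatment (SD, n = 8).

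**Figure D3:**
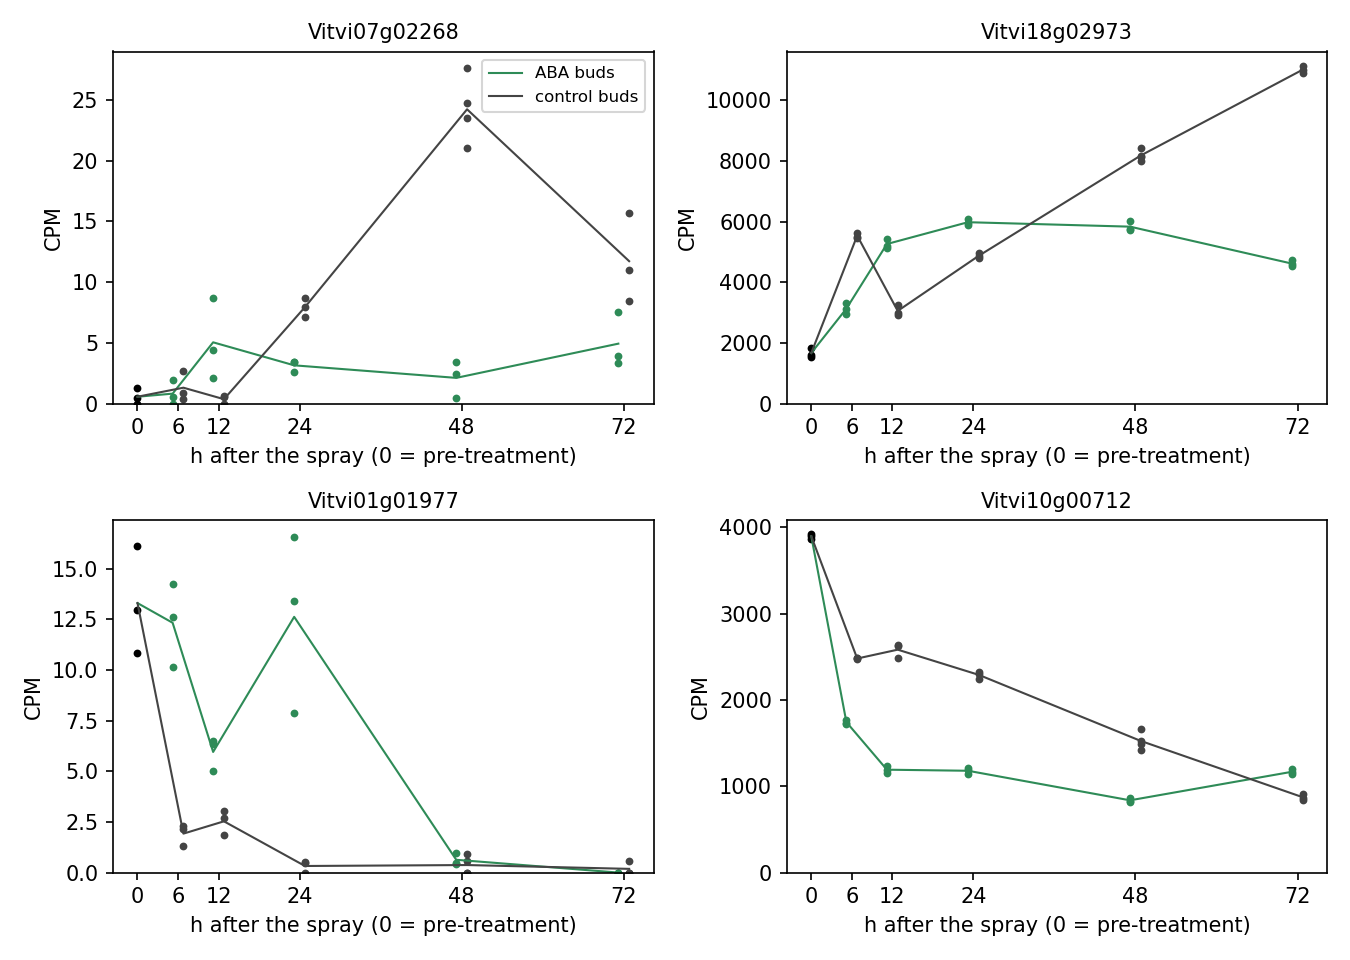
CPM of the 4 named genes in every bud column (points) against hours after the spray, with lines through the column means for ABA buds (green) and control buds (dark grey), both starting at the pre-treatment columns (black points at 0 h). Vitvi07g02268 has 2.18 CPM in the summed ABA library of 48 h and 24.4 CPM in the control library of 48 h, on which it was chosen. At times free of that choice it has 4.86 CPM with ABA and 11.9 CPM in controls at 72 h, and 5.00 and 0.391 CPM at 12 h.

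The medians of both lists lay in time order over the control course. The median level of the 1420 higher genes was 2.36 log2 CPM at pre-treatment, then 2.89, 2.95, 3.32, 3.87 and 4.25 in control buds of 6, 12, 24, 48 and 72 h. The median of the 801 lower genes was 4.25 at pre-treatment and 3.71, 3.64, 3.35, 3.02 and 2.79 at these times. Over all genes tested the medians stayed between 3.85 and 4.05. The pre-treatment and 48 h values chose the lists, so only the levels at 6, 12, 24 and 72 h are free of that choice. In ABA buds the higher genes had medians of 3.20, 3.55, 3.50, 3.53 and 3.55 from 6 to 72 h, and the lower genes 3.68, 3.40, 3.50, 3.49 and 3.45, so both medians were nearly level from 12 h onward.

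**Figure D4:**
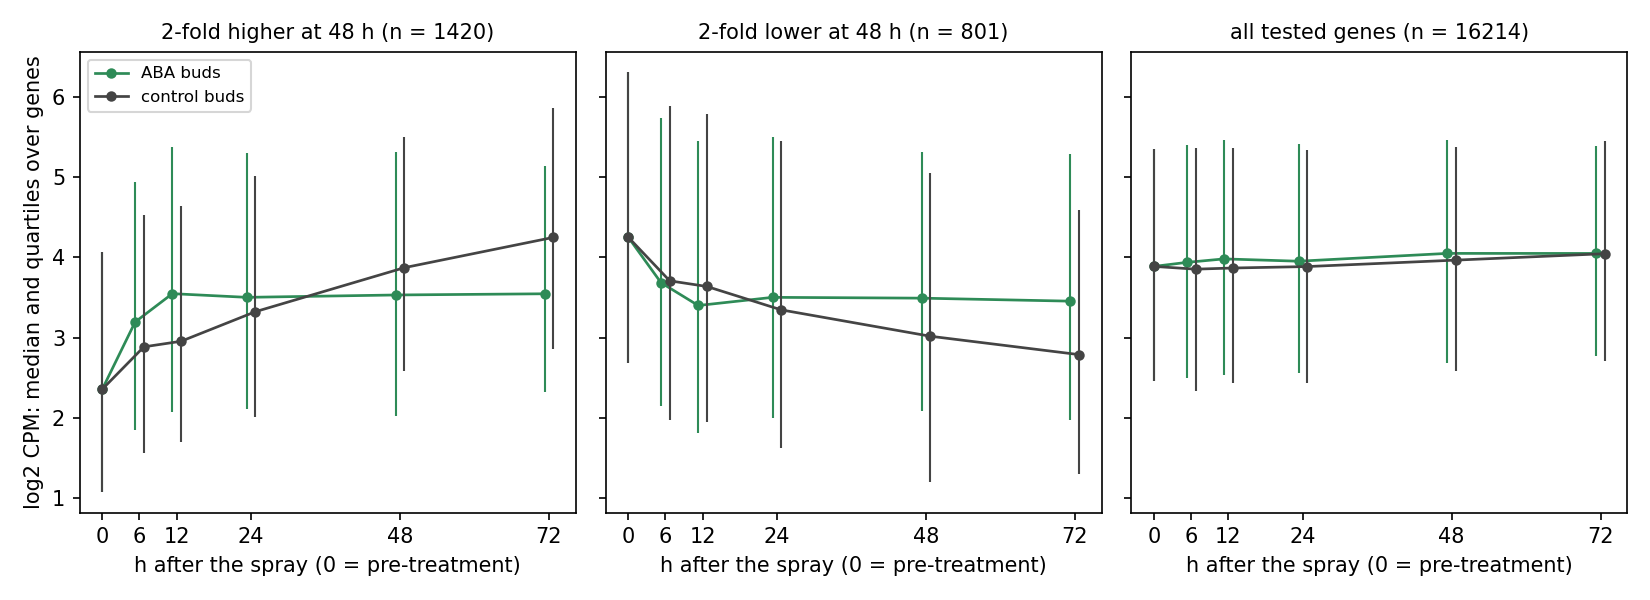
Median log2 CPM (points) with quartiles over genes (vertical lines) against hours after the spray, for ABA buds (green) and control buds (dark grey), both starting at the pre-treatment library at 0 h. In the 1420 genes higher at 48 h the 72 h medians are 3.55 with ABA and 4.25 in controls; in the 801 lower genes the 72 h medians are 3.45 with ABA and 2.79 in controls.

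Differences between libraries that are neither 48 h control nor pre-treatment were then read for the same genes. From 24 to 72 h in control buds the 1420 higher genes had a median log2 difference of 0.77, against 0.072 over all genes tested, and 1183 of them (83.3%) were higher at 72 h than at 24 h, where 53.7% of all genes were. At least 2-fold higher at 72 h than at 24 h were 529 of the 1420 (37.3%), where 15.1% of all genes tested passed that mark. At least 2-fold lower were 24 (1.69%), where 8.31% of all genes were. The 801 lower genes had a median of −0.76 between these times. At least 2-fold lower at 72 h than at 24 h were 304 (38.0%), against the same 8.31%, and 56 were at least 2-fold higher (6.99%). At 24 h against 12 h in controls the medians were 0.34 for the higher genes, −0.28 for the lower genes and −0.0043 for all genes. At least 2-fold higher at 24 h than at 12 h were 156 of the higher genes (11.0%) and 5 of the lower genes (0.624%), where 1.99% of all genes were. At least 2-fold lower were 13 of the higher genes (0.915%) and 73 of the lower genes (9.11%), where 2.4% were. At 24 h against 6 h the genes at least 2-fold higher were 229 of the higher genes (16.1%) and 17 of the lower genes (2.12%), where 4.42% of all genes were. Those at least 2-fold lower were 11 of the higher genes (0.775%) and 88 of the lower genes (11.0%), where 2.29% were. The 24 h control library enters all 3 of these differences and the 24 h ABA difference below. Likewise the 6 h and the 12 h control library are each subtracted both here and in the ABA difference of that time. Counted from the same spray time, 6 and 12 h fall at other times of the light cycle than 24 h. In the differences of 24 h against 12 h and 6 h, time since the spray and time of day therefore cannot be told apart.

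The median ABA minus control difference of each list had opposite signs at 12 and 72 h. At 6 h the higher genes had a median ABA minus control difference of 0.19 and the lower genes −0.24. Both lists held genes past 2-fold in both directions. With ABA at 6 h the genes at least 2-fold higher were 307 of the higher genes (21.6%) and 113 of the lower genes (14.1%), where 10.5% of all genes were. Those at least 2-fold lower were 107 of the higher genes (7.54%) and 85 of the lower genes (10.6%), where 5.39% were. At 12 h the higher genes had a median ABA minus control difference of 0.34 and the lower genes −0.66, against −0.042 over all genes tested. At 12 h 462 of the higher genes (32.5%) and 128 of the lower genes (16.0%) were at least 2-fold higher with ABA, where 15.7% of all genes were. Those at least 2-fold lower were 176 of the higher genes (12.4%) and 294 of the lower genes (36.7%), where 15.1% were. At 24 h the medians were 0.051 and −0.16, the first turning to −0.047 with library totals in place of TMM. With ABA at 24 h the genes at least 2-fold higher were 279 of the higher genes (19.6%) and 149 of the lower genes (18.6%), where 10.8% of all genes were. Those at least 2-fold lower were 221 of the higher genes (15.6%) and 143 of the lower genes (17.9%), where 7.73% were, so neither list kept to a single direction at 24 h. At 72 h the higher genes had −0.63 and the lower genes 0.52, against 0.027 over all genes. At 72 h 522 of the higher genes (36.8%) and 9 of the lower genes (1.12%) were at least 2-fold lower with ABA, where 7.3% of all genes were. At least 2-fold higher were 83 of the higher genes (5.85%) and 224 of the lower genes (28.0%), where 7.89% were. The 72 h control library enters both the 72 h ABA difference and the 72 h minus 24 h difference, so these are not separate results, and the 72 h ABA difference was added after the data had been seen. Within ABA buds, 72 h minus 24 h gave medians of −0.026 and −0.029, against 0.017 over all genes. At least 2-fold higher at 72 h than at 24 h with ABA were 169 of the higher genes (11.9%) and 105 of the lower genes (13.1%), close to the 11.7% of all genes. At least 2-fold lower were 174 of the higher genes (12.3%) and 134 of the lower genes (16.7%), where 6.95% were. From 6 to 48 h with ABA the medians were 0.13 and −0.42. With ABA at 48 h against 6 h the genes at least 2-fold higher were 331 of the higher genes (23.3%) and 88 of the lower genes (11.0%), where 14.1% of all genes were. Those at least 2-fold lower were 162 of the higher genes (11.4%) and 173 of the lower genes (21.6%), where 8.75% were.

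**Figure D5:**
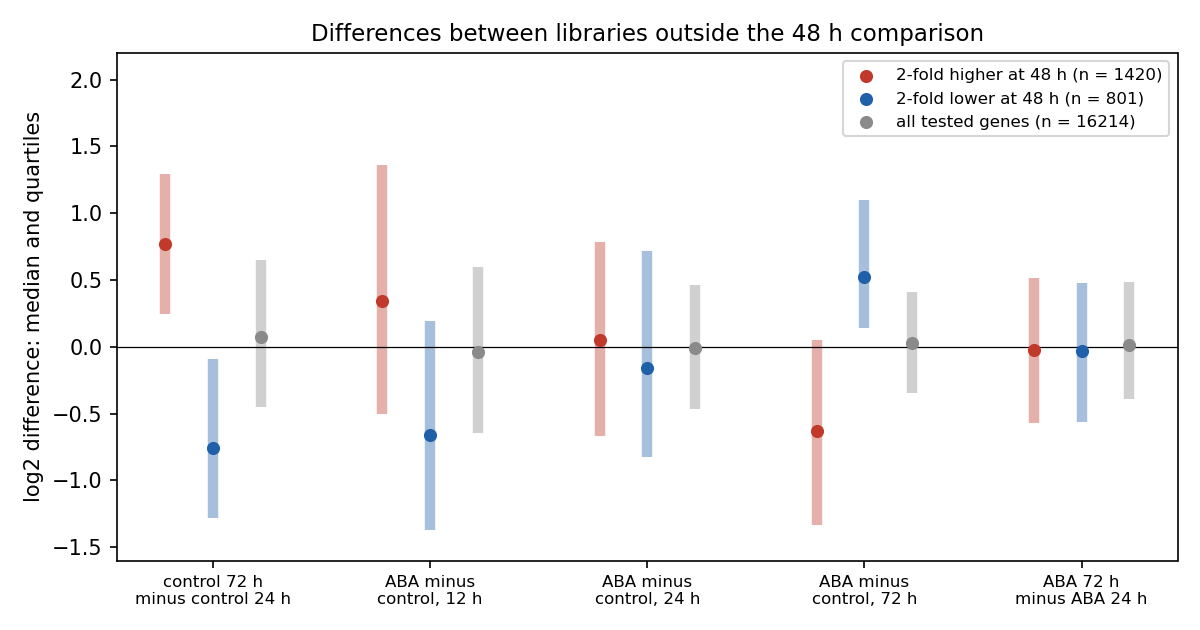
Median log2 difference (points) with quartiles over genes (bars) between bud libraries other than the 48 h control and pre-treatment, for the 1420 genes higher at 48 h (red), the 801 lower genes (blue) and all tested genes (grey). The red and blue medians lie at 0.77 and −0.76 for control 72 h minus control 24 h, and on opposite sides of 0 at −0.63 and 0.52 for ABA minus control at 72 h.

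Among members with a mean of at least 100 CPM, the 148 lower genes had log2 differences reaching down to −3.44, with quartiles of −1.33 and −1.07, and the 140 higher genes had quartiles of 1.21 and 1.78; the 2-fold limit sets the inner edge of both. In control buds 102 of the 148 (68.9%) were at least 2-fold lower at 72 h than at 24 h, where 8.31% of all genes were. Only 5 (3.38%) had any higher level at 72 h, where 53.7% of all genes did. Their median ABA minus control difference was −1.03 at 12 h, with 78 at least 2-fold lower (52.7%, all genes 15.1%), and −0.80 at 24 h. At 72 h the median was 0.49. Then 143 of the 148 (96.6%) had any higher level with ABA than in controls, where 52.6% of all genes did. At least 2-fold higher with ABA were 20 (13.5%, all genes 7.89%), and at least 2-fold lower 0 (all genes 7.3%). These 148 genes held 5.00% of the counts at 48 h and 10.9% at pre-treatment. The 140 abundant higher genes had medians of −0.22 at 12 h and −1.13 at 72 h for ABA minus control, and at 72 h 83 (59.3%) were at least 2-fold lower, where 7.3% of all genes were.

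The 33 genes past 8-fold upward had a median of 0.63 log2 CPM at pre-treatment, and of 2.12, 1.70, 2.70, 4.15 and 5.05 in control buds of 6, 12, 24, 48 and 72 h. In controls 26 of the 33 (78.8%) were at least 2-fold higher at 72 h than at 24 h, where 15.1% of all genes were, and 0 were 2-fold lower, where 8.31% were. For the 33 genes the median ABA minus control difference was negative at 6 h (−0.57) and at 24 h (−0.78). It was positive at 12 h (0.85). At 6 h 11 (33.3%) were at least 2-fold lower with ABA and 4 (12.1%) higher, where 5.39% and 10.5% of all genes were. At 24 h 14 (42.4%) were at least 2-fold lower and 7 (21.2%) higher, where 7.73% and 10.8% of all genes were. At 12 h 14 of the 33 (42.4%) were at least 2-fold higher with ABA, where 15.7% of all genes were. Another 7 (21.2%) were at least 2-fold lower, where 15.1% were. In ABA buds the median level of the 33 was 2.41 at 48 h and 2.65 at 72 h. At 72 h 25 of the 33 (75.8%) were at least 2-fold below the control, where 7.3% of all genes were. Of these 33 genes, 7 had a mean under 5 CPM and 3 a mean of at least 100 CPM. The 9 genes past 8-fold downward had a median of 0.25 log2 CPM at 48 h and 3.78 at pre-treatment, with 3.20 and 1.48 in the controls of 6 and 24 h.

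The genes higher at 48 h took a large share of leaf counts. Over the whole list their median leaf level was below that of all genes, as was their median in control buds of 24 h (3.32 against 3.89 log2 CPM). At matched bud levels their median leaf level was above that of all genes in each band. The 8 pre-treatment leaf libraries of the series came from potted greenhouse vines. In them the 1420 higher genes held 23.1% of the counts and the 801 lower genes 2.86%. Most of the share of the higher genes lay in the 140 with a mean of at least 100 CPM in buds, which held 16.3%. The median leaf level was 3.29 log2(CPM + 0.5) for the higher genes, 2.39 for the lower genes and 3.57 for all genes tested. At least 1 CPM in leaves was reached by 78.4% of the higher genes, 69.4% of the lower genes and 84.9% of all genes. Among genes with a mean of at least 100 CPM in the buds compared here, median leaf levels were 8.07 log2(CPM + 0.5) for the 140 higher genes, 6.24 for the 148 lower ones and 6.86 for all 1759. Some higher genes had no leaf signal: 75 of the 1420 had no leaf count, 5.28%, against 8.49% of the lower genes and 2.92% of all genes tested. At matched levels in control buds of 24 h, from 5 to 7 log2 CPM, the median leaf level was 5.80 for 235 higher genes, 4.54 for 129 lower genes and 5.31 for all 3546. From 3 to 5 log2 CPM it was 3.79, 2.90 and 3.72 for these sets, and from 1 to 3 log2 CPM 2.02, 0.61 and 1.78. In each band a smaller share of the higher genes than of all genes reached 1 CPM in leaves: 87.7% against 94.2% in the highest band, 81.6% against 89.8% in the middle band and 72.0% against 73.2% in the lowest. Control leaves of 48 h against pre-treatment leaves differed at least 2-fold upward in 57 of the 1420 genes (4.01%), where 1.54% of all bud-tested genes did, and downward in 9, where 0.783% did. Tissue, growing conditions and read length differ between the tables, which were scaled separately, and no test joins them.

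The 4 columns of 48 h differed slightly in genes chosen for a 2-fold difference between the controls of 72 h and 24 h. In the 1581 genes of at least 5 CPM that were 2-fold higher in controls at 72 h than at 24 h, columns 1 to 4 had median levels of 4.18, 4.35, 4.07 and 4.37 log2(CPM + 0.5), between 3.55 at 24 h and 5.14 at 72 h. The genes were chosen on the 24 h and 72 h values, so that choice sets both ends. The 3 pre-treatment columns had 3.85, 3.86 and 3.92, above the 24 h level, so this scale does not follow time. In the 1053 genes that were 2-fold lower at 72 h, column 3 had 4.95, beside 4.89, 4.88 and 4.82 in columns 1, 2 and 4. Column 3 thus again lay on the 24 h side. The ends, 5.30 at 24 h and 4.00 at 72 h, were set by the same choice, and the pre-treatment columns had 5.41 to 5.48. Column 3 was also the one with the fewest counts, and the part of its depth in this was not tested. Without column 3 there were 1413 genes at least 2-fold higher and 862 at least 2-fold lower at 48 h.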

How the data were processed

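The bud table and the leaf table hold raw read counts per gene as deposited by the authors, in whole numbers. Per the labels' protocols, libraries were made with the QuantSeq 3′ kit and sequenced on a NextSeq500; FastQC, STAR and DESeq2 are named in the submitters' processing notes, with no version or role. The sources used here do not give genome build, annotation, strand or treatment of shared tags, so genes with close copies or antisense partners are uncertain.

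Columns were matched to samples by header and title (34 bud and 12 leaf columns used, 28 leaf columns not used here). The 8 pre-treatment leaf columns were matched to their group only, since their names repeat in the header and in the titles. The names do not show whether these are 8 separate plants. Columns of each bud group were summed, genes kept by filterByExpr (minimum count 10, by treatment over the 11 summed libraries), and TMM factors and log2 CPM (prior count 2) computed with edgeR 4.0.16 in R 4.3.3; everything else was done in Python 3.11.15. With 1 library per group no p-value was computed. Counting intervals are exact (Clopper-Pearson, 95%) and cover counting error only, since no molecular identifiers are mentioned in the sources. Leaf CPM used column totals, log2 with 0.5 added. The steps were tested on simulated data. The simulation held counting noise only and changed only genes with many counts, so it covers neither spread between columns nor genes of low counts. Named genes follow 1 rule: a mean of at least 5 CPM, columns that do not overlap, and then the largest and the smallest log2 difference, the gene at least 2-fold higher with the highest CPM at 48 h and the gene at least 2-fold lower with the highest CPM at pre-treatment. Pathway lists could not be formed without gene names. The lists, the rule and the comparison were chosen with earlier results of these data known. Alternatives were RLE factors, library totals, no filter, a prior count of 5, an interval threshold and leaving out each column.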

Additional observations from a re-analysis of the deposited data

How the results depend on the processing

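No paired analysis was possible because each group was 1 summed library and the result comes from no test. Scaling by library totals alone moved the median of all genes by 0.10 (log2) and the calls to 1718 higher and 583 lower, 74.7% higher against 63.9%. Under it the median ABA difference at 24 h of the higher genes turned to −0.047, the medians at 72 h became −0.44 (higher genes) and 0.70 (lower genes), and the leaf median of the lower genes was 2.07. Without the count filter, with 23074 genes, 2092 genes were at least 2-fold higher and 1286 lower, and 267 at least 4-fold higher and 81 lower. The medians were then 0.59 (higher) and −0.56 (lower) for 72 minus 24 h in controls, −0.51 and 0.46 for ABA at 72 h, 0.00 for ABA at 24 h (lower), and 1.75 and 0.40 for leaf level. A prior count of 5 gave 1197 genes at least 2-fold higher and 663 lower, and 149 at least 4-fold higher and 32 lower. The ABA median at 72 h was then −0.69 (higher) and leaf medians were 3.73 and 2.89. With the counting interval wholly beyond 2-fold the counts were 580 and 302. Leaving out 1 column gave −0.78 to −0.66 (control 72 minus 24 h, lower), −0.62 to −0.53 (ABA at 72 h, higher) and 0.047 to 0.13 (ABA at 24 h, higher; 0.13 without pre-treatment column 3). Leaving out 1 column kept every count within 1.5 times, with 1383 to 1509 genes at least 2-fold higher and 781 to 862 lower. Vitvi07g02268 ran from 4.32 to 5.42 and Vitvi01g01977 from −4.75 to −4.03 without 1 column. The cause of these shifts was not tested. Depth limits genes of a few CPM most, and the spread between separate buds is unknown.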

Other observations

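The 2 digits after Vitvi in an identifier give the chromosome in the naming of the grapevine annotation, and 00 stands for unplaced genes. Over the 19 numbered groups the share of tested genes at least 2-fold higher at 48 h ran between 7.33% (54 of 737, chromosome 17) and 11.5% (74 of 643, chromosome 3). The share at least 2-fold lower ran between 4.02% (38 of 946, chromosome 4) and 6.53% (42 of 643, chromosome 3), so both directions occurred in every group.

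Genes of a list had neighbours of the same list by identifier number somewhat more often than tested genes in general. Of 1046 higher genes with a tested gene at the next or previous number, 164 had a neighbour that was also higher (15.7%), against 11.4% of all 12328 such genes. For the lower genes it was 63 of 618 (10.2%), against 6.89%. The longest run was 5 consecutive numbers on chromosome 12, all lower, with 5.43 to 52.4 CPM at 48 h and 15.7 to 113 CPM at pre-treatment. In the 72 h control these 5 genes had 0.711 to 10.3 CPM. The longest upward run was 4 consecutive numbers on chromosome 1, with 4.93 to 8.26 CPM at 48 h and 0.761 to 2.74 CPM at pre-treatment, and with 9.05 to 57.7 CPM in the ABA library of 48 h. The part of tags shared between near-identical neighbours in this was not tested.

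Over all 42413 identifiers, 29 had at least 10 counts at 48 h and none at pre-treatment, with at most 30 counts, and 5 had at least 10 counts at pre-treatment and none at 48 h, with at most 17. With 3 counts put in place of none, the largest of these differences came to 8.10-fold higher and 7.00-fold lower at 48 h. The other count was taken as exact, so these values are not lower bounds. Of the 29 identifiers 4, and of the 5 identifiers 0, were among the genes kept by the filter.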
